A study of Mus musculus with 3 samples.

Results

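The clustered protocadherin genes were followed in maps of accessible chromatin from MEL cells. Members were the protein-coding genes of the GENCODE M21 basic annotation of mouse build mm10 whose symbol begins with Pcdha, Pcdhb or Pcdhg. This rule gave 57 of 21851 protein-coding genes, with 14 Pcdha, 22 Pcdhb and 21 Pcdhg genes, all on the plus strand of chromosome 18. The 57 genes carried 56 symbols, because Pcdha11 named 2 gene models. One of these, ENSMUSG00000007440.10, starts at 37005203, and RefSeq places its Pcdha10 at 37005320 to 37187657. The other, ENSMUSG00000102206.5, starts at 37010712. Pcdhgb8 is annotated as a polymorphic pseudogene in this release and was not a member.

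MEL is a mouse erythroleukemia line, made of transformed precursors of red blood cells. DNase-seq reads the places where the enzyme DNase I can cut chromatin, and these mark promoters, enhancers and other regulatory DNA. The study had 3 libraries of MEL cells in 1 condition, from 2 biological replicates: replicate 1 had 2 libraries, whose regions were called together, and replicate 2 had 1 library. There was thus a single list of peaks per biological replicate, each 150 bp wide and carrying the authors' score, and a single list of broader accessible regions called hotspots.

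Clustered protocadherins are cadherin-type adhesion proteins known mainly from neurons. In the Pcdha and Pcdhg clusters each variable exon has its own promoter and is spliced to a shared set of constant exons, while each Pcdhb gene is a single variable exon without constant exons. Neurons choose among these promoters, and the resulting combinations give a cell the surface identity by which its own branches avoid each other. The C-type genes, Pcdhac1, Pcdhac2, Pcdhgc3, Pcdhgc4 and Pcdhgc5, are expressed in a more uniform way than the others. The DNA-binding protein CTCF and the ring complex cohesin are known to bring the chosen promoters to enhancers, and DNA methylation is known to keep others silent.

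The replicate 1 list held 281600 peaks with scores of 1 to 150 and a median of 73, and the replicate 2 list held 89046 peaks with a median of 32. Scores were whole numbers that never exceeded the peak width, and they were read only within a list. Read depth is unknown. Promoters of the erythroid genes Gata1, Klf1, Tal1, Nfe2 and Epor held a peak in both lists. Of 6 neuron genes, Syn1 and Tubb3 held a peak in replicate 1 and Syn1 alone in replicate 2. No test between groups was possible with 1 condition. Wilson 95% intervals are given over genes or peaks. They cover counting error only, and neighbouring genes are not independent replicates.

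Fewer clustered protocadherin promoters were accessible than promoters of other genes, and the accessible ones had low scores. A promoter peak was one centred within 1000 bp of any annotated start of the gene. In replicate 1, 28 of 57 members had such a peak (49.1%, interval 36.6 to 61.7), against 58.3% of the 21794 other protein-coding genes. In replicate 2, 10 of 57 members had one (17.5%, interval 9.82 to 29.4), against 49.5% of the others. All 10 were among the 28 of replicate 1, so 10 members had a peak in both lists, against 49.5% of the others. The replicate 1 interval for members includes the share of the other genes, and the replicate 2 interval does not.

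The median score of the strongest promoter peak was lower for members than for other genes in both lists, and the ranges overlapped. It was 49 over the 28 members of replicate 1, with a range of 25 to 134. Other genes with a promoter peak had a median of 139 and a range of 8 to 150. In replicate 2 the median was 13.5 over 10 members, with a range of 8 to 50. Other genes there had a median of 63 and a range of 5 to 137. No member reached the other genes' median in either list. In bulk DNase-seq, a site open in few cells and a site cut less in every cell cannot be told apart. In replicate 1, 20 of 28 members lay under the median of the whole peak list, and in replicate 2 this held for 8 of 10.

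**Figure D1:**
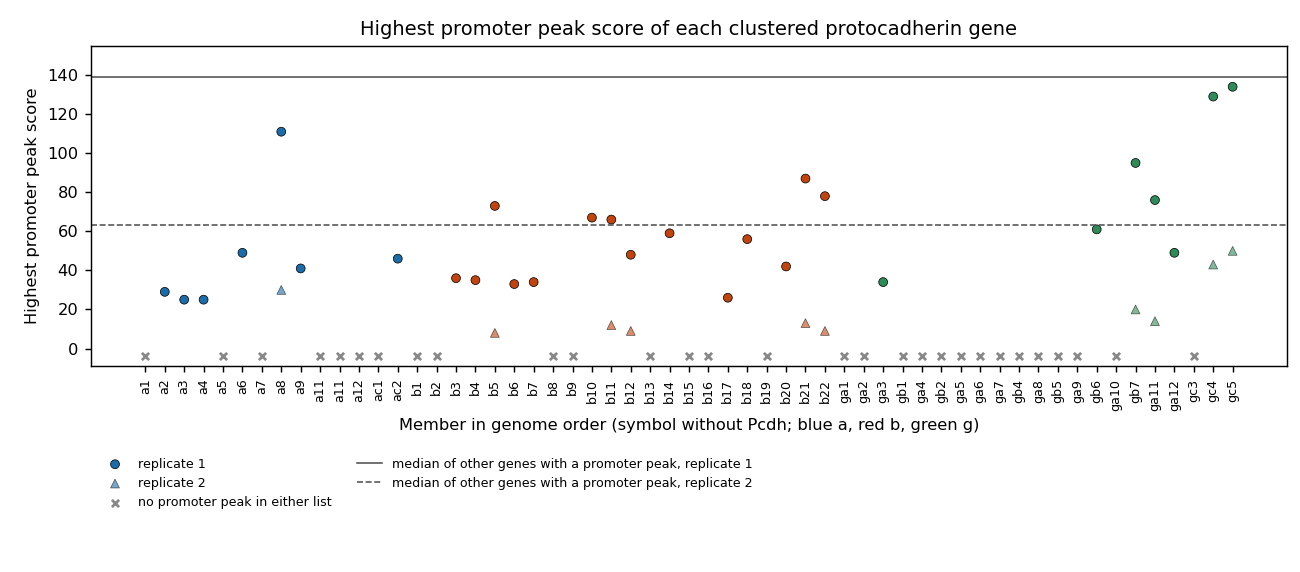
Highest promoter peak score of each of the 57 members in genome order, as deposited, in replicate 1 (circles) and replicate 2 (triangles); crosses mark members with no promoter peak in either list, and lines give the median over other genes with a promoter peak (139 and 63). All member points lie under the line of their own list, and Pcdhgc4 and Pcdhgc5 come closest to it.

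The length of a list changed how many members it held. Cut to its 89046 highest peaks, the length of the replicate 2 list, the replicate 1 list kept a score of at least 98 and left 3 members with a promoter peak, Pcdha8, Pcdhgc4 and Pcdhgc5, while 50.8% of other genes kept one. The 10 members found in both lists scored 48 to 134 in replicate 1, and the 18 found in replicate 1 alone scored 25 to 67. The members of replicate 2 were thus drawn mostly from the upper part of the replicate 1 scores, and the ranges overlapped.

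Pcdha, the first subcluster, had a promoter peak at 7 of 14 genes in replicate 1 and at 1 of 14 in replicate 2. Pcdha8 stood above the rest of its subcluster. It starts at 36992371 and had 4 promoter peaks in replicate 1 and 3 in replicate 2, the strongest scoring 111 and 30, with centres 20 and 60 bp before the start. The other Pcdha genes with a peak in replicate 1 were Pcdha6 at 49, Pcdhac2 at 46, Pcdha9 at 41, Pcdha2 at 29, and Pcdha3 and Pcdha4 at 25 each. None of these had one in replicate 2. Only 78.7% of the 32-bp words of the Pcdha8 promoter occur once in the genome, among the lowest shares of any member, and the part of read mapping in its values was not tested.

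The peaks of Pcdha4 and Pcdha6 did not lie at the start. Their centres were 596 and 603 bp downstream, inside the variable exon. The Pcdha4 peak was also nearer to the start of Gm42416, a read-through model that runs on across the cluster. Pcdhac2 passed the distance limit narrowly, with a centre 992 bp before its start. No member lay just outside the limit: among members without a promoter peak, the nearest replicate 1 peak was 3716 bp from the start at Pcdhb9 and 3726 bp at Pcdha1. Pcdha1, Pcdha5, Pcdha7, both Pcdha11 models, Pcdha12 and Pcdhac1 had no promoter peak in either list.

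Pcdhb, whose members are single-exon genes, had the largest share of its genes with a peak in both lists. There were 14 of 22 in replicate 1 (63.6%, interval 43.0 to 80.3) and 5 of 22 in replicate 2 (22.7%, interval 10.1 to 43.4). The intervals overlap those of Pcdha and Pcdhg. The genes with a peak in both lists were Pcdhb21 at 87 and 13, Pcdhb22 at 78 and 9, Pcdhb5 at 73 and 8, Pcdhb11 at 66 and 12, and Pcdhb12 at 48 and 9, giving replicate 1 first. In replicate 2 all 5 scored below that list's median of 32.

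Pcdhb peaks sat close to the starts. All 14 strongest peaks of replicate 1 were centred within 200 bp of a start, with a median position 32 bp upstream, and the 5 of replicate 2 had a median 30 bp upstream. The 9 Pcdhb genes with a peak in replicate 1 alone scored 67 at Pcdhb10, 59 at Pcdhb14, 56 at Pcdhb18, 42 at Pcdhb20, 36 at Pcdhb3, 35 at Pcdhb4, 34 at Pcdhb7, 33 at Pcdhb6 and 26 at Pcdhb17. These were spread through the array from Pcdhb3 to Pcdhb20. Pcdhb1, Pcdhb2, Pcdhb8, Pcdhb9, Pcdhb13, Pcdhb15, Pcdhb16 and Pcdhb19 had none in either list.

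Pcdhg had a promoter peak at 7 of 21 genes in replicate 1 and at 4 of 21 in replicate 2. Apart from Pcdhga3, these genes were Pcdhgb6 and genes that follow it. The A type had 3 of 12 and 1 of 12, and the B type 2 of 6 and 1 of 6. Pcdhgb7 scored 95 and 20, and Pcdhga11 scored 76 and 14. Pcdhgb6 at 61, Pcdhga12 at 49 and Pcdhga3 at 34 had a peak in replicate 1 alone. Between the peak at Pcdhga3 and the next one, replicate 1 had no peak for 66.94 kb, a stretch that holds the starts of 10 members from Pcdhgb1 to Pcdhga9. Of its 32-bp words, 93.1% occur once in the genome, and 203 of 8233 gaps between replicate 1 peaks on chromosome 18 are at least as long. Replicate 2 had 1 peak inside it, at chr18:37677136-37677285, with a score of 8.

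The C-type genes split. Pcdhgc5 had the highest promoter score of all members in each list, 134 and 50, and Pcdhgc4 the next, 129 and 43. In replicate 1, Pcdhgc5 scored above 36.3% of all protein-coding genes with a promoter peak, members included, and in replicate 2 above 29.7%. Pcdhgc4 had 5 promoter peaks in replicate 1, scoring 111, 106, 129, 86 and 90 along the gene, and 1 in replicate 2. Pcdhgc3 and Pcdhac1 had no promoter peak in either list, although all of their promoter words occur once in the genome. The gene model of Pcdhgc3 begins at 37806364. Its protein-coding transcript starts slightly downstream, 8321 bp from the nearest replicate 1 peak and 8941 bp from the nearest of replicate 2. With 3 of 5 C-type genes accessible in replicate 1 and 2 of 5 in replicate 2, the interval for their share, 23.1 to 88.2% in replicate 1, covers that of the other members.

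The stretch from Pcdhgc3 to the end of Pcdhg was the densest in peaks. It is 35.51 kb long and held 17 peaks in replicate 1 and 5 in replicate 2, or 47.9 and 14.1 per 100 kb. The placed chromosomes as a whole had 10.6 and 3.36 per 100 kb. The highest score between the first start and the last end of the members lay here in both lists, 142 in replicate 1 and 73 in replicate 2, at chr18:37818236-37818385. This peak is in an intron, at -1202 bp from the start of Pcdhgc5 and so outside the promoter distance.

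Further peaks of this stretch were singled out after their values were seen. In the exon of Pcdhgc4, the peak at chr18:37817756-37817905 scored 132 in replicate 1, and an overlapping peak of replicate 2 scored 37. The peak at chr18:37825036-37825185 scored 124 and overlaps the first constant exon of Pcdhg, which runs from 37825021 to 37825079; its replicate 2 counterpart scored 31. Replicate 1 hotspots were 2640 bp long at Pcdhgc4, 3401 bp at Pcdhgc5 and 1421 bp at the constant exon. In replicate 2 the hotspots of the C-type stretch were 148 to 434 bp long.

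**Figure D2:**
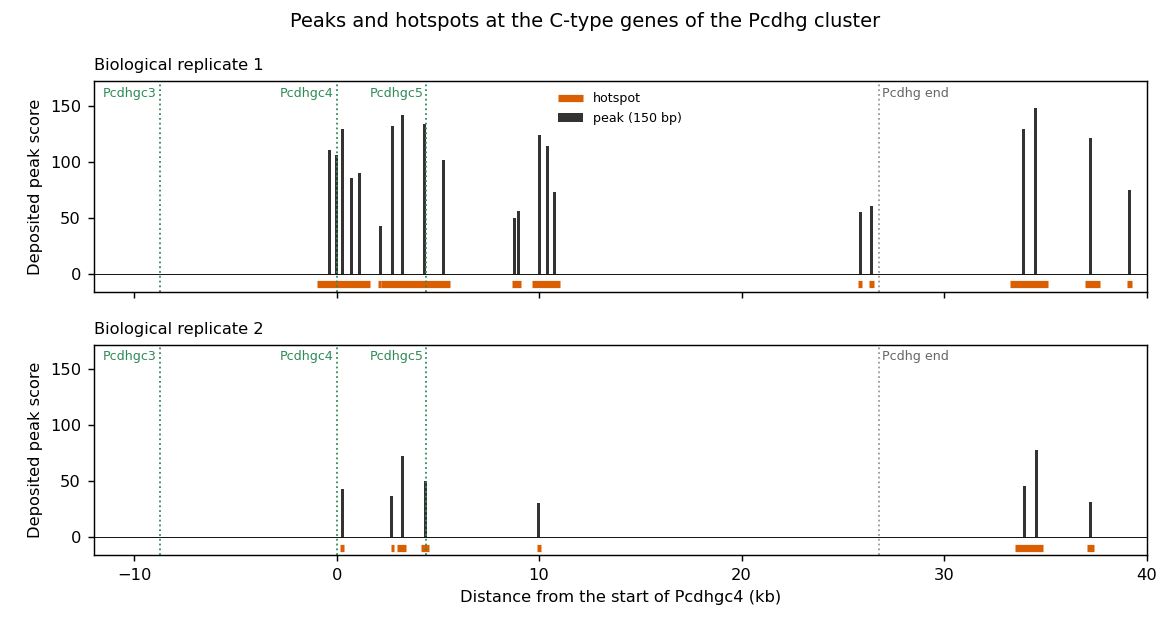
Deposited score of each peak (dark bars) and extent of hotspots (orange) around the Pcdhg C-type genes, against distance in kb from the annotated start of Pcdhgc4; dotted lines mark the 3 gene starts and the end of Pcdhg. Peaks gather between Pcdhgc4 and Pcdhgc5 in both replicates, and none lies at the start of Pcdhgc3.

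A strong site of the Pcdhg array belonged to no member. Upstream of the pseudogene Pcdhgb8, which starts at 37761801, the peak at chr18:37761336-37761485 scored 125 in replicate 1, with its centre 390 bp before the start. In replicate 2 peaks scored 24 and 17, at 430 and 110 bp before it. The replicate 1 value exceeds that of every A-type and B-type member, of which Pcdhgb7 was highest at 95. This site was also chosen after its values were seen.

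Promoter peaks of members lay mostly just upstream of the start, as did those of other genes. The strongest peak of members was centred at a median of 41.5 bp before the nearest start in replicate 1 and 35 bp in replicate 2. Over other genes with a promoter peak these medians were 52 and 54 bp before the start. The strongest peak fell within the 200 bp upstream at 21 of 28 members (75.0%) in replicate 1, against 51.6% of other genes. In replicate 2 it did so at 10 of 10, against 60.6% of other genes. For members as a whole, with or without a promoter peak, the nearest peak was a median of 3716 bp from a start in replicate 1 and 13600 bp in replicate 2. Over other genes these medians were 222 and 1111 bp.

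The CpG ratio of the promoter did not order the members as it ordered other genes. Genes were put in 5 classes of equal size by the observed over expected number of CpG pairs within 500 bp of the start. The classes did not match GC share. Its median for members and other genes was 41.5% and 48.7% in the second class and 44.9% and 55.7% in the third. In the fourth class it was 46.2% and 59.8%, and the part of GC share in the values below was not tested. Among other genes, the share with a replicate 1 peak rose through the classes from 23.6% in the lowest to 85.6% in the highest. Members in the second class had a peak at 10 of 13 genes in replicate 1 (76.9%, interval 49.7 to 91.8), above the 40.4% of other genes there. Members in the third class had one at 9 of 23 (39.1%, interval 22.2 to 59.2) against 62.0%. In the fourth class the count was 8 of 19 (42.1%, interval 23.1 to 63.7) against 79.9%.

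Replicate 2 gave the same order of members and other genes in each of these classes. The counts were 5 of 13 in the second class against 27.4%, 2 of 23 in the third against 53.2%, and 2 of 19 in the fourth against 74.6%. The interval of the second class in replicate 2, 17.7 to 64.5%, includes the share of the other genes. Most members of the second class are Pcdhb genes, whose median CpG ratio was 0.38, against 0.68 for Pcdha and 0.59 for Pcdhg. In the third class, which held all 3 subclusters, 6 of 10 Pcdhb genes, 2 of 10 Pcdhg genes and 1 of 3 Pcdha genes had a peak in replicate 1. Within Pcdhb, 8 of 11 genes of the second class and 6 of 10 of the third had one. The lowest and highest classes held 1 member each, Pcdhb9 without a peak and Pcdhga11 with one in both lists.

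**Figure D3:**
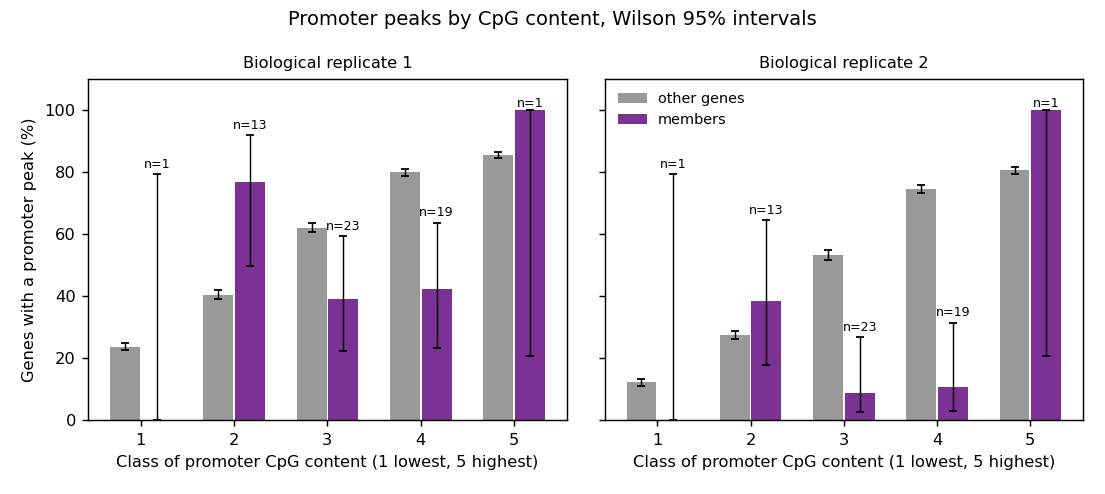
Percent of genes with a promoter peak, by class of promoter CpG content (observed over expected ratio), in replicate 1 and replicate 2. Members are purple, with their number, and other protein-coding genes are grey. Error bars are Wilson 95% intervals, which cover counting error over genes. Grey bars climb from class 1 to class 5, and purple bars are above grey in class 2 and below it in classes 3 and 4.

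Member promoters differed in how much of their sequence is repeated. Over members, a median of 93.9% of promoter 32-bp words occur once in the genome, with a range of 73.7 to 100%. Among the 53 members with at least 80% of such words, 26 had a promoter peak in replicate 1 and 9 in replicate 2, which is 49.1% and 17.0%. These shares are close to those of all 57. Other genes of the same mappability had a peak in 63.6% and 54.6% of cases.

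The window from 100 kb before Pcdha1 to 300 kb after the end of Pcdhg, chr18:36830184-38141873, spans 1.31 Mb. It held 166 peaks in replicate 1, or 12.7 per 100 kb, and 57 in replicate 2, or 4.35 per 100 kb. Between the first start and the last end of the members the density was 8.23 and 2.52 per 100 kb, against 9.42 and 3.04 on chromosome 18. In that stretch 79.2% of 32-bp words occur once in the genome, and the part of read mapping in its density was not tested. The part after the cluster had 27.7 and 10.7 per 100 kb, with 83 of the 166 and 32 of the 57 peaks.

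Of the 4 gene stretches, Pcdha and Pcdhb had the fewest peaks per length. In them 77.4% and 79.6% of words occur once, against 97.6% in the C-type stretch. Replicate 1 had 6.60 per 100 kb across Pcdha and 6.16 across Pcdhb, with median scores of 27 and 45. Replicate 2 had 1.55 and 1.93 per 100 kb, with medians of 12 and 9. The A-type and B-type stretch of Pcdhg had 8.99 and 4.15 per 100 kb, with medians of 61 and 15.5, and the C-type stretch had medians of 102 and 43. Over these 4 stretches the median score was higher at each step from Pcdha to the Pcdhg C types in replicate 1. In replicate 2 it was lower in Pcdhb than in Pcdha.

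**Figure D4:**
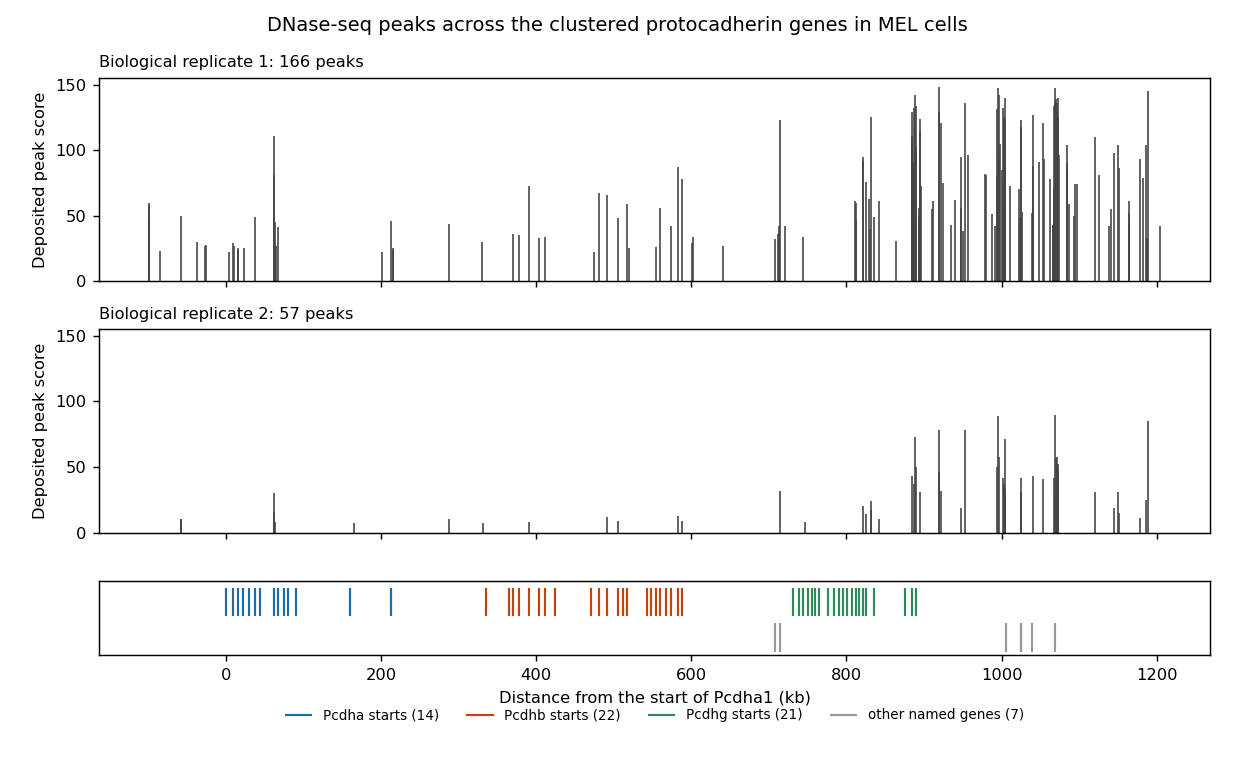
Deposited score of every peak across the window, against distance in kb from the start of Pcdha1, for replicate 1 (166 peaks) and replicate 2 (57 peaks), with gene starts in the lowest panel. Peaks are few and low over most of Pcdha and Pcdhb, apart from Pcdha8, and tall and dense from the Pcdhg C types onward in both replicates.

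The longest stretch between replicate 1 peaks in the window was 134.0 kb. It ran from the promoter peak of Pcdha9, centred 89 bp before that start, to a peak upstream of Pcdhac2. Beyond Pcdha9 it held the starts of both Pcdha11 models, Pcdha12 and Pcdhac1. Of its words, 68.5% occur once in the genome. Replicate 2 had a stretch of 119.9 kb with no peak that held Pcdha1 to Pcdha7, and another of 102.5 kb from after Pcdha8 through Pcdhac1. Stretches at least as long as 134.0 kb were 84 of 8233 gaps between replicate 1 peaks on chromosome 18.

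Enhancers of Pcdha are known to lie near its constant exons and downstream of them. Between the second and the third of these exons, chr18:37159354-37184945, neither list had a peak, though 97.5% of the words there occur once. Between the last Pcdha exon and Pcdhb1 each list had 2 peaks. At chr18:37218316-37218465 replicate 1 scored 44, and replicate 2 scored 10 at an overlapping position. The other peaks there, at 37260576 in replicate 1 with a score of 30 and at 37261256 in replicate 2 with a score of 7, did not overlap. All 4 scores are under the median of their list.

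Most of the tallest peaks of the window lay after the cluster. Of the 10 highest peaks of replicate 2 in the window, 1 lay inside the member region, the site upstream of Pcdhgc5. The highest of replicate 1, at chr18:37849536-37849685, scored 148 there and 78 in replicate 2; it lies in an intron of Diaph1, which encodes a formin that nucleates actin filaments. The next, at chr18:37925956-37926105, also in Diaph1, scored 147 and 89. A peak upstream of Arap3 scored 147 in replicate 1 and 90 in replicate 2, the highest of that list in the window. An intergenic peak at chr18:38118996-38119145 scored 145, and its replicate 2 counterpart scored 85; the nearest protein-coding start was that of Pcdh1. Enhancers of Pcdhb and Pcdhg are known downstream of Pcdhg, and whether any of these peaks is one was not tested.

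Of the 10 other protein-coding genes that start in the window, 8 had a promoter peak in replicate 1 and 6 in replicate 2. Taf7, a subunit of the general transcription factor TFIID that lies between Pcdhb and Pcdhg, scored 123 and 32. Hdac3, a histone deacetylase gene, scored 123 and 42, Diaph1 scored 140 and 71, and Arap3 scored 147 and 90. Slc25a2, which also lies between Pcdhb and Pcdhg, scored 32 in replicate 1 and had no peak in replicate 2. The read-through model Gm42416 likewise had one in replicate 1 alone, and the read-through models Gm37013 and Gm37388 had none in either list. On chromosome 18 outside the members, 64.1% of genes had a promoter peak in replicate 1 and 52.0% in replicate 2.

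Window peaks were found in both lists about as often as peaks elsewhere. In replicate 1, 52 of 166 (31.3%) were overlapped by at least 1 bp of a replicate 2 peak, against 30.2% of peaks outside the window. In replicate 2, 51 of 57 (89.5%) were overlapped by a replicate 1 peak, against 94.6% outside. Between the first start and last end of the members, 20 of 75 (26.7%) and 19 of 23 (82.6%) were shared. By stretch, sharing was complete for the 32 replicate 2 peaks after the cluster, the 5 of Pcdhb and the 5 of the Pcdhg C types. The 1 peak between Pcdhb and Pcdhg was shared too. In Pcdha 3 of 4 were shared, and in the A-type and B-type stretch of Pcdhg 4 of 6. Between Pcdha and Pcdhb 1 of 2 was shared, and before the cluster 0 of 2.

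Matches to a 12-letter CTCF consensus were more frequent in Pcdha promoters than in those of other genes. Both strands were searched, first with no mismatch. Of 14 Pcdha promoters, taken as 1000 bp on each side of the start, 6 held a match (42.9%), against 1.69% of other genes' promoters. All 6, at Pcdha1, Pcdha4, Pcdha6, Pcdha7, Pcdha8 and Pcdha12, were on the plus strand inside the variable exon. No Pcdhb or Pcdhg promoter held an exact match. A CTCF site with other letters is missed by this search, so the count does not show that sites are absent there. Pcdha4 and Pcdha6, whose peaks lie in the exon, had the match inside the replicate 1 peak. Pcdha8 had it inside a replicate 2 peak with a score of 16, and the remaining 3 had no promoter peak in either list. With up to 1 mismatch, 10 of 14 Pcdha promoters held a match (71.4%), against 20.6% of other genes. Of these, 9 were on the plus strand and 1 on the minus strand, and 1 Pcdhb and 2 Pcdhg promoters then held a match.

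Pcdhb genes held the consensus elsewhere. There were 13 exact matches in Pcdhb variable exons, all on the minus strand and 2271 to 2567 bp from the start. Of these, 1 lay in a peak, in the exon of Pcdhb14 in replicate 1, and none in replicate 2. After the cluster there were 3 exact matches, all in a replicate 1 peak and 2 of them in a replicate 2 peak. One of the latter, on the minus strand at 37883728 in an intron of Diaph1, lay in a peak that scored 136 and 78. No share over the exons of other genes, or over all exact matches of the genome, is given beside these counts. The 13 matches lie in related neighbouring genes and are not independent.

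Across all window peaks, 6 of 166 in replicate 1 (3.61%, interval 1.67 to 7.66) held an exact match, and 3 of 57 in replicate 2 (5.26%, interval 1.81 to 14.4). Over all placed peaks the shares were 2.40% and 4.74%. Both are inside the intervals of the window. A match describes the letters of the reference and not binding, and CTCF itself was not measured in these data.

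Other protocadherins and other tandem arrays were read beside the members. Of 12 protocadherin genes outside the clusters, Pcdh1 alone had a promoter peak, scoring 118 and 31. Olfactory receptors had one at 106 of 1134 genes (9.35%, interval 7.79 to 11.2) in replicate 1 and at 32 (2.82%) in replicate 2. These shares lie below those of the members, 49.1% and 17.5%, and the intervals do not overlap. The promoters also differ in CpG ratio, with a median of 0.11 for olfactory receptors, 0.68 for Hox genes and 0.56 for members. In the lowest CpG class, 23.6% of genes that are not members had a promoter peak in replicate 1 and 12.1% in replicate 2. The part of CpG ratio in these shares was not tested. Genes of the Hox clusters had one at 11 of 39 (28.2%, interval 16.5 to 43.8) in replicate 1 and at 7 of 39 (17.9%) in replicate 2. The intervals of members and Hox genes overlap in both lists.

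A fixed list of 20 regulators of chromatin and DNA methylation had a median CpG ratio of 0.80, at the border of the fourth and the fifth class. In those classes 79.9% and 85.6% of other genes had a promoter peak in replicate 1, and 74.6% and 80.5% in replicate 2. Whether each listed gene acts on protocadherin promoters was not tested. The list includes Ctcf, the cohesin subunits Rad21, Smc1a and Smc3, and the chromatin silencers Smchd1 and Setdb1. Of its 20 genes, 20 had a promoter peak in replicate 1 and 18 in replicate 2. Ctcf scored 135 and 41, and Smchd1 scored 147 and 96. Dnmt3b, a DNA methyltransferase that acts on these promoters in the embryo, scored 103 in replicate 1 and had none in replicate 2. Tet1, which oxidizes methylated cytosine, scored 84 in replicate 1 and had none in replicate 2.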

How the data were processed

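Each library was DNase-seq of MEL cells, and each biological replicate had 1 deposited list of peaks and 1 of hotspots on mm10, per the labels. That both libraries of replicate 1 were merged before calling was read from the deposited notes, which give them the same alignment; the spread between them could not be measured. Aligner, caller and read counts are not given in the sources used here. The peak score is the authors' value, deposited without a stated meaning. Hotspots carry a deposited −log10 q-value by their format and served as positions.

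Exact repeats (67 and 7 lines) were dropped. Positions were set against GRCm38 and GENCODE M21 basic with numba 0.67.0, pandas 2.3.3, numpy 2.4.6, scipy 1.17.1 and matplotlib 3.10.9 under Python 3.11.15, and the position rules were tested on simulated data. Members and lists were chosen with earlier results of these data known. All members could be named. Other genes came from fixed lists, and peaks were those at member promoters, between Pcdha and Pcdhb, or among the 10 highest of the window, except where stated. Alternatives were other promoter widths, overlaps, score cuts, windows and motif mismatches. One gene of the erythroid marker list is not reported here.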

Additional observations from a re-analysis of the deposited data

How the results depend on the processing

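Scores cannot be compared between lists, and a missing peak is not shown to be closed chromatin. Read depth is unknown, and its part in list length was not tested. Of 41 alternative values, 16 moved, by over 1.5 times for a count or a median, or past the Wilson interval for a share. With the higher-scoring 50% of each list, 7 members had a promoter peak in replicate 1 and 2 in replicate 2, against 53.4% and 44.5% of other genes. The window then held 72 and 27 peaks, and the median distance to the nearest peak was 31910 and 149600 bp. With replicate 1 cut to the length of replicate 2, 3 members had a promoter peak, the window held 42 peaks, the median distance was 46590 bp, and 85.7% of replicate 1 and 64.9% of replicate 2 window peaks were shared. With peaks overlapped by the other list only, 10 members had one in replicate 1. From the first start to the last end there were 75 and 23 peaks, with a median score of 14.0 in replicate 2. With up to 1 mismatch, 8.43% of replicate 1 window peaks (interval 5.09 to 13.7) held a CTCF match, against 9.72% of all placed peaks. In replicate 2 the share was 8.77% (interval 3.81 to 18.9), against 14.5%. The window share was thus under the background, and over it with exact matches. The window intervals include the background in each case. These settings kept fewer peaks, used a shorter window or allowed a looser motif, and what lay behind each shift was not tested. No paired analysis was possible because the design has 1 condition and no test.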
